A study of Mus musculus with 24 samples.

Results

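The acyl-CoA thioesterases described here are 10 genes, Acot1, Acot2, Acot3, Acot4, Acot7, Acot8, Acot9, Acot11, Acot12 and Acot13, taken by symbol from a mouse islet RNA-seq table that lists 41549 genes. The table holds 3 more Acot symbols, Acot5, Acot6 and Acot10, which are not members and appear only where reads of a member could be shared with them. Dispersed pancreatic islet cells of wild type mice (male and female C57BL/6NRj animals of 12 to 14 weeks, by the study's methods) were transfected with 50 pmol of a control antisense oligonucleotide (Ctr ASO) or of an ASO against the tRNA-derived fragment 5'tRF-Glu(CTC) (αGlu ASO). The cells were then cultured for 48 h with 0.5 mM of the saturated fatty acid palmitate (PA) bound to bovine serum albumin (BSA), or with 0.75% fatty-acid-free BSA alone, in medium with 1% serum. This gave 4 groups of 6 stranded mRNA libraries, named by ASO and medium as Ctr BSA, αGlu BSA, Ctr PA and αGlu PA, and the labels place 3 libraries of each group in batch 1 (S1 to S12) and 3 in batch 2 (S13 to S24). All 4 groups share the wild type genotype and a transfection, and no group was left without an ASO. The study describes 6 independent experiments and a shared animal or passage for the groups of each, while the labels do not say which mice or cultures a library came from, so the p-values measure the spread between these libraries.

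An acyl-CoA thioesterase splits an acyl-CoA into a free fatty acid and coenzyme A (CoA), the reverse of what the acyl-CoA synthetases do. The family works in several compartments: Acot1 in the cytosol, Acot2 and Acot9 in mitochondria, Acot3, Acot4 and Acot8 in peroxisomes, and Acot7, Acot11, Acot12 and Acot13 mainly in the cytosol or at membranes. Several members, with Acot1 and Acot2 the best known, are targets in liver of PPARα, a nuclear receptor activated by fatty acids. Palmitate enters the cell as a free acid and is joined to CoA. The acyl-CoA so formed is a substrate of those members that act on long-chain acyl-CoA, which not all of them do.

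Acot1, Acot2, Acot3 and Acot4 lie side by side with Acot5 and Acot6 on chromosome 12 (GRCm38, GENCODE M21, chr12:83987861-84111349), all 6 on the plus strand. Acot2 spans 83987861 to 83993873, Acot1 spans 84009490 to 84018371 and Acot4 spans 84038379 to 84048601 of that chromosome. Their exons share sequence: 24.5% of the 50-base words of Acot2's annotated exons also occur in Acot1's, and 13.6% of Acot1's occur in Acot2's. Against all other Acot genes the shared part was 27.6% for Acot2, 18.4% for Acot1, 7.57% for Acot3 and 4.17% for Acot4, so reads from these parts could be counted for the wrong neighbour. Acot9, on chromosome X, shares 15.2% of its words with Acot10, which had a count of 0 in every library. Acot7, Acot8, Acot11, Acot12 and Acot13 shared 0 such words with another Acot gene.

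The bases just before the start of the 3 clustered genes that rose with PA are shown because PPARs bind a direct repeat of a 6-base motif near the start of their targets. The sequences are RefSeq's for GRCm38.p6, plus strand, 5′ to 3′, and end before the annotated start of each gene. Capitals mark a match, on either strand, to the repeat without its first base.
Acot1 (chr12:84009252-84009489): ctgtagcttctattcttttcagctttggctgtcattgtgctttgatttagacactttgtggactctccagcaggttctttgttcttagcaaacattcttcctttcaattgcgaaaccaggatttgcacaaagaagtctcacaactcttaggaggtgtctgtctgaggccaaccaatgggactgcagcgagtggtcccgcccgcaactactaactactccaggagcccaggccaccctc
Acot2 (chr12:83987611-83987860): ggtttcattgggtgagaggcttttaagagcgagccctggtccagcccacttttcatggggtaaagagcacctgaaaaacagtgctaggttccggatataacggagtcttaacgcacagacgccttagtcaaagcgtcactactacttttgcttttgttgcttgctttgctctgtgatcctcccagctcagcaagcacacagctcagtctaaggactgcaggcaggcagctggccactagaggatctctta
Acot4 (chr12:84038129-84038378): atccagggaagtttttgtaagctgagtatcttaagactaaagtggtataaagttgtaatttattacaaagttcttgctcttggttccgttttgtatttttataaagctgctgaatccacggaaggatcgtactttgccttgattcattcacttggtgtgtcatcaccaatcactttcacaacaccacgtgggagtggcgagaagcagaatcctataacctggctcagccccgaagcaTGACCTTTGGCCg
The full repeat, 2 copies of AGGNCA with 1 base between them, was found in 0.338% of 32851 RefSeq windows of 250 bases before a gene start, and before no member with a window. Without its first base, a search chosen after that result was known, it was found in 0.694% of the windows, among them that of Acot4, on the minus strand at bases -13 to -2 from the start. The single motif AGGTCA occurred in 14.02% of the windows, and among members before Acot4 (inside the longer match) and Acot12. A match describes the letters and no binding was measured.

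Levels were compared between genes as TPM, a unit per length of transcript that the authors computed. In Ctr BSA, Acot13, a small hot-dog fold thioesterase associated with mitochondria, had the highest level, with a median of 87.1 TPM over 6 libraries (lowest 68.8, highest 90.7). It held a median of 62.7% of the TPM of all 10 members, which together came to a median of 143 TPM, and it stood apart from the next gene in the order. Of the 19310 genes with a median above 0 in Ctr BSA, 5.29% lay above Acot13. Acot9 (median 12.8 TPM, 10.3 to 34.8), Acot8 (11.1 TPM, 6.97 to 12.98), Acot11 (10.8 TPM, 5.79 to 13.7), Acot2 (6.77 TPM, 4.80 to 9.97) and Acot7 (5.14 TPM, 4.14 to 18.4) followed, and each overlapped the next in range. Acot4, with a median of 1.73 TPM (1.32 to 2.00), stood apart below them. Acot12 (median 0.921 TPM), Acot1 (0.423 TPM) and Acot3 (0.165 TPM) closed the order with overlapping ranges.

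**Figure D1:**
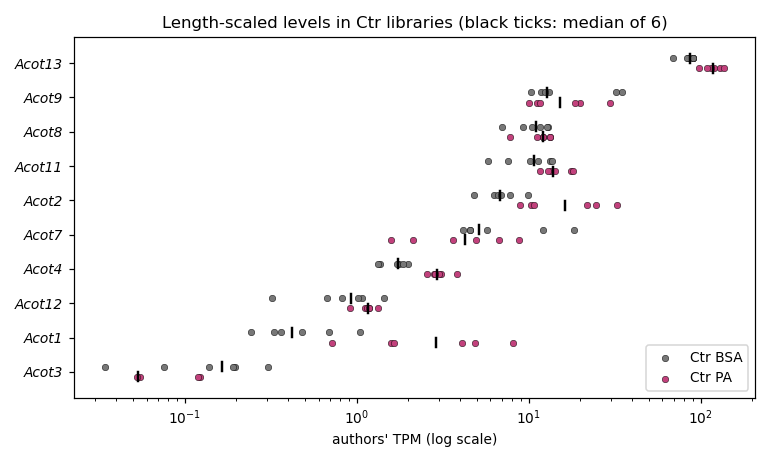
Length-scaled level of the 10 members in the 6 Ctr BSA (grey) and 6 Ctr PA (pink) libraries, in the authors' TPM on a log axis, with each median as a black tick. Acot13 lies apart at the top, and the Acot1 points of the 2 treatments overlap only at their edges; for Acot3, libraries at 0 cannot be drawn on the log axis.

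Between groups the genes were compared as CPM (reads scaled to the size of the library) after TMM scaling, tested by edgeR's quasi-likelihood test with a batch term and Benjamini-Hochberg adjustment over 15916 genes, and called at an adjusted p below 0.05. Acot3 had 0 to 13 counts per library and did not pass the filter on low counts, so 9 members were tested. With PA, Acot1, Acot2 and Acot4 of the chromosome 12 cluster and 2 members elsewhere rose, and Acot7 fell. In Ctr cells 5 of the 9 tested members rose (Acot1, Acot2, Acot4, Acot11 and Acot13), 1 fell (Acot7), and Acot8, Acot9 and Acot12 did not pass the test. Over all tested genes 15.5% were called higher and 14.5% lower. The median log2 fold change of the 9 members was 0.42, beside 0.01 over all genes tested. All 6 PA libraries lay above all 6 BSA libraries for 3 members (Acot2, Acot4 and Acot13), and for 2.97% of all genes. With a fold change above 2 and an unadjusted p below 0.05 as the rule, 2 members were called higher (Acot1 and Acot2), beside 0.854% of all genes.

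Acot1, the cytosolic long-chain thioesterase, had the largest fold change of the family. Its 6 Ctr BSA libraries ran from 0.354 to 1.40 CPM (median 0.708; 10 to 51 reads), and its 6 Ctr PA libraries from 1.11 to 11.3 CPM (median 3.89; 31 to 310 reads). Only the lowest PA library, S23 of batch 2 at 1.11 CPM, fell within the BSA range, whose top was S5 of batch 1, and within each batch the groups did not overlap. The log2 fold change was 2.50 (SE 0.33), or 5.64-fold with a 95% interval of 3.53 to 9.02 (adjusted p = 4.11e-06). At this low level the counting error of single libraries is large, and in TPM the median of Acot1 went from 0.423 to 2.89.

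Acot2, the mitochondrial partner of Acot1, had a higher level and a smaller fold change. It had 3.79 to 7.45 CPM in Ctr BSA (median 5.81) and 7.70 to 25.6 CPM in Ctr PA (median 12.3). All 6 PA libraries lay above all 6 BSA libraries, but the PA libraries themselves fell into 2 levels by batch, described further on. The log2 fold change was 1.16 (SE 0.17), or 2.24-fold with an interval of 1.76 to 2.86 (adjusted p = 1.43e-05).

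Acot4, a peroxisomal enzyme known as a succinyl-CoA thioesterase, rose from a median of 4.24 CPM in Ctr BSA (3.10 to 4.73) to 6.78 CPM in Ctr PA (6.09 to 10.1). The groups did not overlap, and library S23, lowest of the PA group for Acot1 and Acot2, was the highest for Acot4. The log2 fold change was 0.81 (SE 0.13; adjusted p = 3.09e-05). For Acot3, its peroxisomal neighbour, all libraries held few reads: 1 to 13 in Ctr BSA and 0 to 4 in Ctr PA, with 2 of the PA libraries at 0, where 3 reads are the upper limit that a count of 0 allows. No difference in Acot3 could be read at this depth. Because neighbours share sequence, the reads of Acot1 to Acot6 were also summed: the sum went from 15.9 to 19.7 CPM in Ctr BSA to 24.2 to 50.1 CPM in Ctr PA, with a log2 fold change of 0.91 (SE 0.12; adjusted p = 6.12e-06 when fitted as 1 gene). Within that sum Acot1's share had a median of 3.996% in Ctr BSA and 11.9% in Ctr PA, and Acot2's a median of 32.8% and 38.4%. Acot6, a non-member at 5.82 to 7.99 CPM in Ctr BSA and 6.67 to 10.2 CPM in Ctr PA, had a log2 fold change of 0.28 that did not pass the test (adjusted p = 0.0767).

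**Figure D2:**
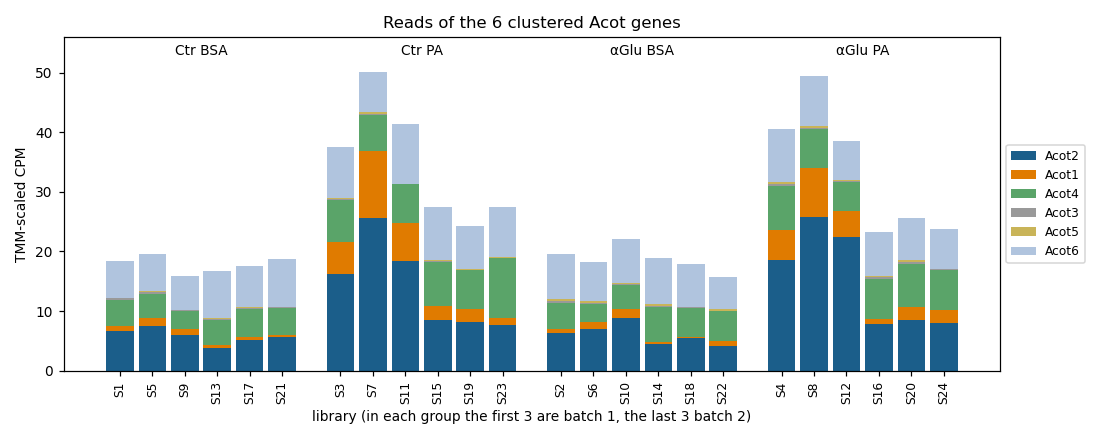
TMM-scaled CPM of the 6 neighbouring genes of chromosome 12 stacked for every library, in the 4 groups. The sum was 15.9 to 19.7 CPM in Ctr BSA and 24.2 to 50.1 CPM in Ctr PA, and the tallest bars are PA libraries of batch 1, where Acot2 (dark blue) and Acot1 (orange) take the larger part.

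Acot11 (also called Them1) and Acot13 (Them2), long-chain thioesterases outside the cluster, rose by less but with small errors. Acot11 had 15.6 to 29.4 CPM in Ctr BSA (median 23.5) and 24.8 to 39.8 CPM in Ctr PA (median 30.8). The ranges overlap because batch 2 ran higher than batch 1 in both treatments; within each batch all PA libraries were above all BSA libraries. The log2 fold change was 0.48 (SE 0.08; adjusted p = 4.26e-05), and in a fit without the batch term the call was lost (adjusted p = 0.0606). Acot13 went from 21.97 to 24.8 CPM (median 23.5) to 27.8 to 38.2 CPM (median 29.7), with no overlap, and its log2 fold change was 0.42 (SE 0.07; adjusted p = 9.74e-05). In TPM, where Acot13 is the leading member, its median went from 87.1 to 118.

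Acot7, a cytosolic long-chain thioesterase that is abundant in brain, was the member called lower. Its 6 Ctr BSA libraries ran from 3.25 to 13.7 CPM (median 4.64) and its 6 Ctr PA libraries from 1.32 to 6.63 CPM (median 3.10). The ranges overlapped widely over both batches, since batch 1 lay above batch 2 in every group; in batch 2 the 3 PA libraries were below the 3 BSA libraries, and in batch 1 they overlapped. The log2 fold change was -0.89 (SE 0.25; adjusted p = 0.00819). The call was lost without the batch term (adjusted p = 0.23), in batch 1 alone (log2 -0.93, adjusted p = 0.0908) and in batch 2 alone (log2 -0.84, adjusted p = 0.0726). Acot7's highest library, S9, was also the one with the highest summed acinar markers (19755 CPM over 9 genes), and without S9 the log2 fold change was -0.73 (adjusted p = 0.0333). Whether the acinar content bears on Acot7 was not tested.

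The other 3 tested members did not pass the test in Ctr cells. Acot8, a broad-range peroxisomal thioesterase, had a median of 8.37 CPM in Ctr BSA (4.87 to 9.41) and 8.26 CPM in Ctr PA (6.12 to 9.98), with a log2 fold change of 0.05 (95% interval -0.23 to 0.34). Acot9, the mitochondrial member, had a median of 10.9 CPM in Ctr BSA and 11.9 CPM in Ctr PA, with a log2 fold change of -0.21 in the fit (-0.54 to 0.11). Acot12, a cytosolic acetyl-CoA hydrolase best known from liver, had a median of 1.20 CPM in Ctr BSA and 1.31 CPM in Ctr PA, with a log2 fold change of 0.30 (-0.23 to 0.83). For Acot9 the fit adjusts for batch while the medians do not, and without library S1 of Ctr BSA its log2 fold change was -0.34 (adjusted p = 0.0404). For Acot12 the interval leaves room for a rise past the size called for Acot11 and Acot13, up to that of Acot4 (log2 0.81). A change of the size called for Acot11 or Acot13 lies outside the interval of Acot8, and for Acot9 outside it upward.

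**Figure D3:**
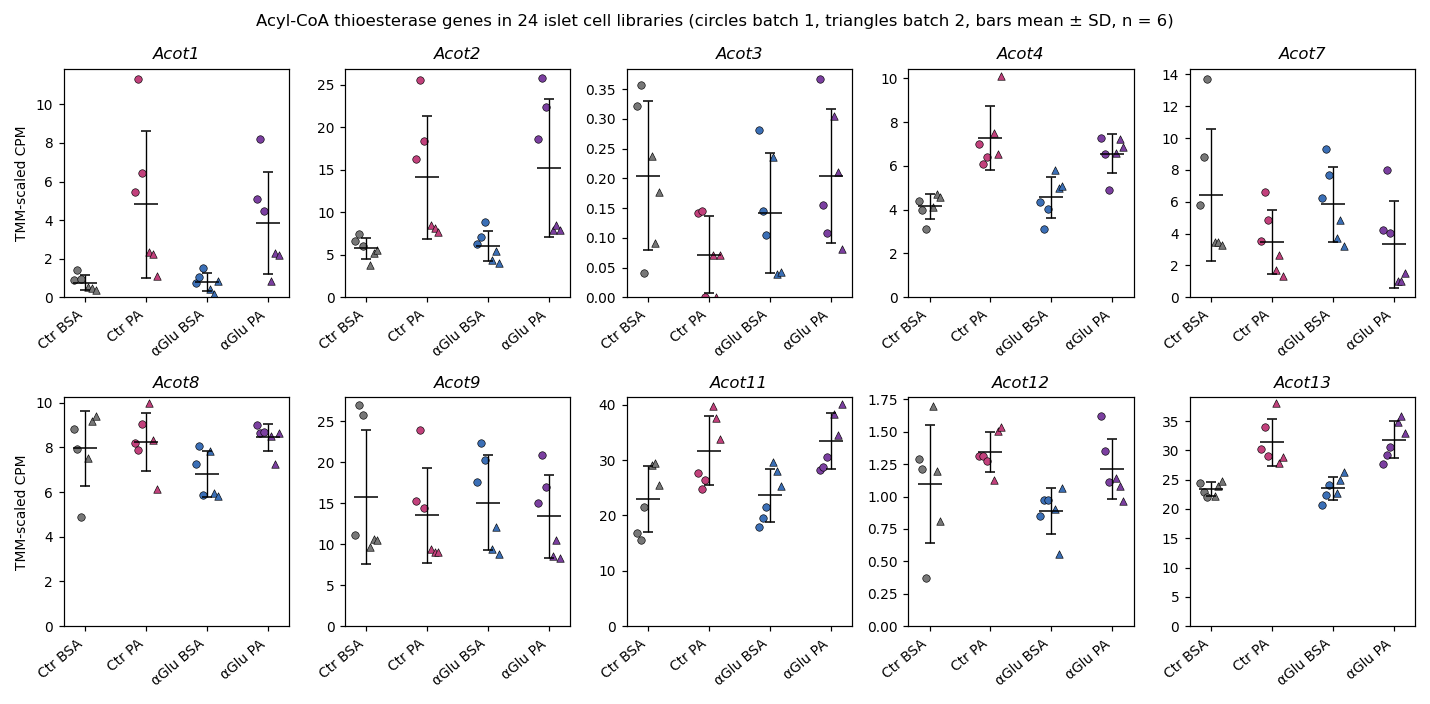
TMM-scaled CPM of each member in the 24 libraries, by group, with circles for batch 1, triangles for batch 2, and bars for mean ± SD of 6 libraries. In Ctr cells all PA points lie above all BSA points for Acot2, Acot4 and Acot13, batch 1 lies above batch 2 for Acot1, Acot2, Acot7 and Acot9 in most groups, and the axis of Acot3 ends below 1 CPM.

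In αGlu cells PA was again followed by higher Acot1, Acot2, Acot4, Acot11 and Acot13 and lower Acot7, which made 5 members called higher and 1 lower of 9 tested, beside 14.4% of all genes higher and 14.2% lower. Acot1 went from 0.159 to 1.53 CPM (median 0.796) in αGlu BSA to 0.840 to 8.18 CPM (median 3.36) in αGlu PA, a log2 fold change of 2.18 (SE 0.33; adjusted p = 2.03e-05). The lowest PA library, S16 of batch 2 at 0.840 CPM, fell within the BSA range, and the groups overlapped in batch 2. Acot2 went from 4.04 to 8.85 CPM to 7.90 to 25.8 CPM, with a log2 fold change of 1.23 (SE 0.17; adjusted p = 6.97e-06). The ranges overlapped only because S10 of batch 1 reached 8.85 CPM under BSA, and within each batch they did not.

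Acot4 had a log2 fold change of 0.54 in αGlu cells (SE 0.12; adjusted p = 0.00203), with 3.14 to 5.80 CPM under BSA and 4.88 to 7.27 CPM under PA. In batch 2 alone the value was 0.38 and the call was lost (adjusted p = 0.155). Acot11 (log2 0.51, adjusted p = 1.94e-05) and Acot13 (log2 0.43, adjusted p = 7.25e-05) gave values close to those in Ctr cells, and for Acot13 all 6 PA libraries (27.7 to 35.9 CPM) were above all 6 BSA libraries (20.7 to 26.3 CPM), as in 4.17% of all genes. Acot7 had a log2 fold change of -1.04 (SE 0.25; adjusted p = 0.0028), with 3.19 to 9.31 CPM under BSA and 1.03 to 7.99 CPM under PA. That difference was -1.70 in batch 2 alone (adjusted p = 0.00266) and -0.53 in batch 1 alone, where it was not called (adjusted p = 0.359), and the call was lost without the batch term (adjusted p = 0.292). Acot8 (log2 0.31, adjusted p = 0.0885), Acot9 (-0.17) and Acot12 (0.45) did not pass the test; Acot8 passed in the fit of the 2 compared groups alone (adjusted p = 0.0296) and without library S9 (adjusted p = 0.0367), which is a Ctr BSA library and enters this comparison only through the scaling, the batch term and the shared spread. With a fold change above 2 and an unadjusted p below 0.05, Acot1 and Acot2 were called higher, beside 0.823% of all genes, and Acot7 lower, beside 4.74%. The Ctr and αGlu comparisons with PA have no library in common, but they are not independent. Both come from 1 fit with a shared scaling, batch term and spread. The study also describes a shared animal or passage for the groups of each experiment.

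**Figure D4:**
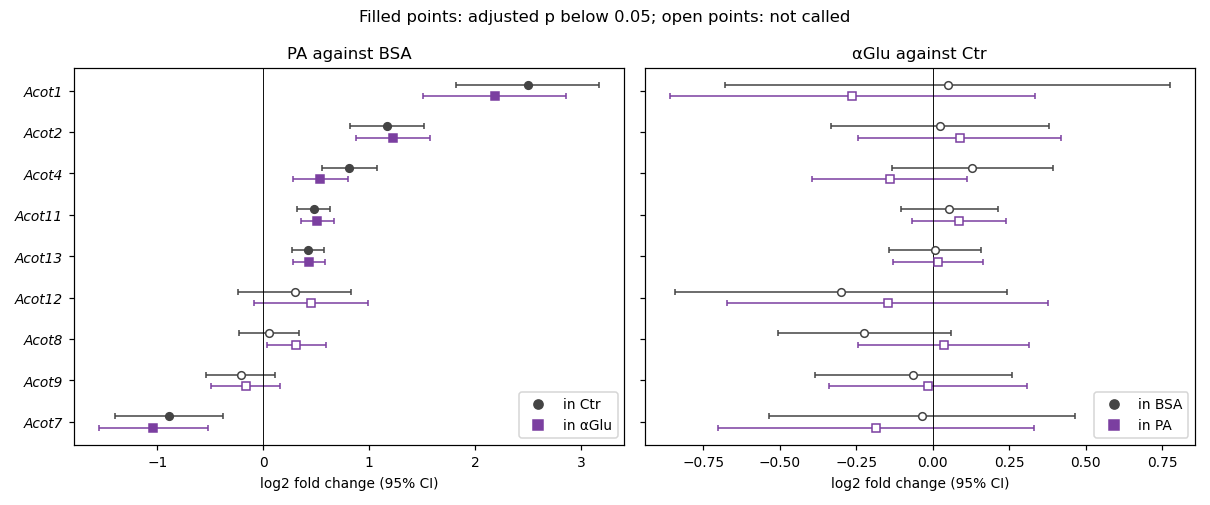
Log2 fold changes of the 9 tested members with 95% intervals, for PA against BSA on the left (Ctr circles, αGlu squares) and for αGlu against Ctr on the right (BSA circles, PA squares), where filled points are called at an adjusted p below 0.05. The intervals for PA lie to the right of 0 for Acot1, Acot2, Acot4, Acot11 and Acot13 and to the left for Acot7 under both ASOs, and all points on the right-hand panel are open.

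The ASO against 5'tRF-Glu(CTC) gave no called difference in any member. In BSA and in PA alike, 0 of 9 tested members were called between αGlu and Ctr, beside 0% of all genes by edgeR's quasi-likelihood test, and 0 of these 9 had an unadjusted p below 0.05. Over all genes 461 (2.9%) had such an unadjusted p in BSA and 538 (3.38%) in PA, while DESeq2 called 8 and 28 genes at its adjusted p, with no member among them. With a term for each set of 4 successive library numbers, chosen after seeing the data, the BSA comparison called 9 genes and the PA comparison 0, again with no member. In BSA the largest member difference was that of Acot12, with a log2 fold change of -0.30 (95% interval -0.84 to 0.24), and Acot8 had -0.22 (-0.51 to 0.06). In PA it was that of Acot1, with a median of 3.89 CPM in Ctr and 3.36 CPM in αGlu and a log2 fold change of -0.26 (-0.86 to 0.33). Acot13 and Acot11 were the most tightly bounded of the 9. For Acot13 the interval ran from -0.14 to 0.16 in BSA and from -0.13 to 0.17 in PA, and for Acot11 from -0.10 to 0.21 and from -0.07 to 0.24. Acot3 entered only in edgeR's fit without a filter on low counts. There its log2 fold change in PA was 1.49 (unadjusted p = 0.0452, adjusted p = 0.933), from 0 to 4 reads in Ctr PA and 2 to 12 in αGlu PA.

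The PA responses of the 2 ASOs were also set against each other. The difference (response in αGlu minus response in Ctr, log2) was -0.31 for Acot1 (95% interval -1.26 to 0.63), 0.06 for Acot2 (-0.42 to 0.55) and -0.27 for Acot4 (-0.64 to 0.09). It was called for 0 of 9 tested members and 0% of all genes, and DESeq2 called 1 gene, not a member. An unadjusted p below 0.05 was found for 332 genes (2.09%), 0 of the 9 tested members among them. For Acot3, in edgeR's fit without a filter on low counts, the difference was 2.01 (unadjusted p = 0.0499), again from few reads. For Acot11 and Acot13 the differences were 0.03 (-0.19 to 0.25) and 0.01 (-0.20 to 0.22), so a difference of the size of their PA response lay outside the interval. For Acot7 the interval was wide (-0.87 to 0.57), as it was for Acot1.

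The 2 batches differed in the level of several members, and the labels do not say what a batch is. Acot2, Acot7 and Acot9 had all 3 batch 1 libraries above all 3 batch 2 libraries in each of the 4 groups, and Acot1 in 3 of the 4. Acot11 had them all below in each of the 4. The share of all genes whose batches lie apart in this way was not computed, so these counts describe the members only. In Ctr PA the mean of Acot1 was 7.74 CPM in batch 1 (SD 3.12, n = 3) and 1.89 CPM in batch 2 (SD 0.675, n = 3), a ratio of 4.10, and that of Acot2 was 20.1 CPM (SD 4.89) and 8.10 CPM (SD 0.387), a ratio of 2.48. In Ctr BSA the same ratio was 2.45 for Acot1 and 1.38 for Acot2. Acot13, Acot8 and Acot12 had close means in both batches of Ctr PA, with ratios of 0.984, 1.03 and 0.933. The acinar markers differed between batches as well, from 6325 to 19755 CPM summed in Ctr BSA of batch 1 and from 392 to 547 CPM in batch 2, and their part in the batch difference of these members was not tested.

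Acot2 had a larger PA response in batch 1 than in batch 2, a difference that edgeR's test over all genes did not call. In Ctr cells its log2 fold change was 1.57 in batch 1 alone (adjusted p = 0.000383) and 0.74 in batch 2 alone (adjusted p = 0.0123), and in αGlu cells 1.58 (adjusted p = 0.000484) and 0.81 (adjusted p = 0.0069). The interaction of PA with batch, averaged over both ASOs and taken as batch 2 minus batch 1, was -0.81 on the log2 scale for Acot2 (SE 0.17; unadjusted p = 0.000109), which missed the threshold over all genes (adjusted p = 0.0817) and passed by DESeq2 (adjusted p = 0.0145) and without library S3 (adjusted p = 0.0496). With a term for each set of 4 successive library numbers it passed as well (log2 -0.80, adjusted p = 0.0116), where 103 genes were called in place of 10. By edgeR 0 of 9 members and 0.0628% of all genes were called in this test. For Acot1 the interaction was -0.63 (95% interval -1.57 to 0.32; adjusted p = 0.914), with 2.78 and 2.09 in the 2 batches of Ctr cells. Acot11 (0.55 and 0.41) and Acot13 (0.42 and 0.42) were called in each batch alone in Ctr cells, as were Acot1, Acot2 and Acot4. The share of all genes called in these fits of a single batch was not counted.

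**Figure D5:**
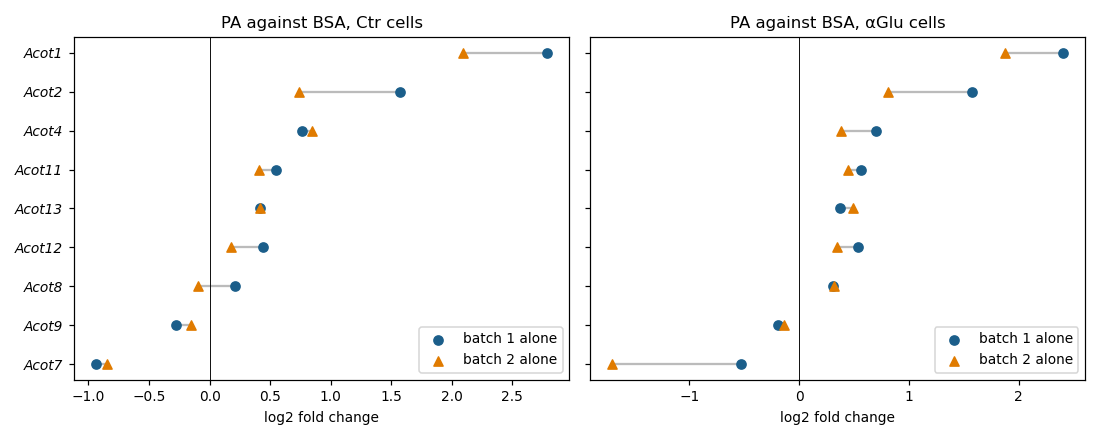
Log2 fold change of PA against BSA in batch 1 alone (circles) and batch 2 alone (triangles) for the 9 tested members, in Ctr cells on the left and αGlu cells on the right, each point from 3 libraries a group. The Acot2 pair lies at 1.57 and 0.74 in Ctr cells, the Acot7 pair at -0.53 and -1.70 in αGlu cells, and the 5 members called higher lie to the right of 0 in both batches.

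Genes that make, cleave or move acyl-CoA gave a frame for the members. Of 24 acyl-CoA synthetases, which do the opposite reaction, 15 were tested in Ctr cells, and 8 rose and 3 fell under PA (median log2 fold change 0.27). Among them Acsl4 went from a median of 61.9 to 91.9 CPM (log2 0.68), Acsl5 from 94.6 to 119 CPM (log2 0.34), Acsl1 from 16.6 to 23.2 CPM (log2 0.42) and Acsbg1 from 1.21 to 2.58 CPM (log2 0.95). Of 19 other CoA and thioester hydrolases 15 were tested, and 5 rose and 0 fell (median log2 0.13). They included Nudt7, a peroxisomal CoA diphosphatase (log2 0.59), Nudt19, which has the same activity (0.44), the lysosomal palmitoyl-protein thioesterase Ppt1 (0.39) and the mitochondrial thioesterase Them4 (0.52). Of 15 genes for CoA synthesis and transport all were tested, and 2 rose (Coasy, the last enzyme of CoA synthesis, log2 0.27, and Aasdhppt, which moves the phosphopantetheine arm of CoA onto proteins, 0.29) and 1 fell (Pank4, a pantothenate kinase relative, -0.28), beside 15.5% of all genes higher and 14.5% lower, so neither share was above that over all genes. In αGlu cells 8 synthetases rose and 0 fell, 5 of the other hydrolases rose and 0 fell, and 2 of the CoA synthesis and transport genes rose and 1 fell, beside 14.4% of all genes higher and 14.2% lower. Aasdhppt was not among them (log2 0.00011, adjusted p = 0.999), and Them4 missed the threshold in αGlu cells (log2 0.31, adjusted p = 0.0525). All these calls are by the test and adjustment used for the members.

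A list of PPAR target genes, chosen with earlier results of these data known, was read in the same way. Of its 38 genes 30 were tested in Ctr cells, and 21 rose and 1 fell, beside 15.5% of all genes higher and 14.5% lower. The median log2 fold change was 0.47, beside 0.01 over all genes tested. Cpt1a, which makes acylcarnitines for mitochondrial import, went from a median of 35.1 to 162 CPM (log2 2.18), the carnitine carrier Slc25a20 from 10.9 to 31.1 CPM (1.45), and the oxidation enzymes Acadvl and Acaa2 from 40.6 to 76.6 CPM (0.86) and from 8.14 to 25.8 CPM (1.56). Of 12 PPARs, partners and coactivators 11 were tested in Ctr cells, and 2 rose and 2 fell, beside the same 15.5% and 14.5%. Among them Pparg (log2 0.62) and the coactivator Ppargc1a (0.93) rose, and Rxra, a partner of the PPARs on DNA, fell (-0.20). In αGlu cells 22 of the PPAR target genes rose and 1 fell, beside 14.4% of all genes higher and 14.2% lower. Of the PPARs, partners and coactivators 2 rose and 2 fell there, and Rxra was not called (log2 -0.06, adjusted p = 0.42). The counts describe the lists, and no test of a list was made.

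The genes whose pattern lay nearest to that of Acot1 and Acot2 were sought among 13716 genes with a mean of at least 1 CPM, all members left out. The measure was the root mean square difference of log2 CPM over 24 libraries, each set to 0 at the Ctr BSA mean of its batch. Nearest to Acot1 was Cpt1a (difference 0.64), followed by Acaa2 (0.64), Mcoln3 (0.66), Plcxd1 (0.66) and Mep1a (0.73), where the median gene lay at 1.62. Nearest to Acot2 were Dcaf12l1 (0.29), Hpgds (0.29), Tacr3 (0.31), Rassf2 (0.31) and Gm17767 (0.32), with a median of 0.92. No gene was named for both, and the measure says only that the values ran alike. How near Acot1, Acot2 and the other members lie to each other was not compared.

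The libraries held islet cells and some other cells. Ins2, the main mouse insulin gene, had 41227 to 79426 CPM and Gcg, the glucagon gene, 9204 to 24782 CPM, both hormones of the labelled tissue, and total counts per library ran from 18214719 to 35001979. Liver and fat markers are relevant because Acot1, Acot2 and Acot12 are known from liver and Acot11 from brown fat. Cyp2e1 was at 0 in all 24 libraries, Alb did not pass 4.16 CPM, Plin1 was at 0 in 13 libraries and Adipoq did not pass 0.413 CPM. Others of these lists had reads in every library: Tat 21.1 to 72.1 CPM and Ttr, also listed as an alpha cell marker, 214 to 485 CPM. Fabp4 reached 1.81 CPM and Cidea 1.19 CPM. With PA in Ctr cells 1 of 4 tested liver markers was called higher, beside 15.5% of all genes, and 1 of 4 tested fat markers lower. PA was accompanied by lower markers of several minor cell types in Ctr cells: 7 of 9 acinar markers were called lower (summed 392 to 19755 CPM in BSA and 207 to 7948 CPM in PA), as were 6 of 7 tested fibroblast and stellate markers (72.2 to 423 CPM and 8.25 to 47.3 CPM) and 7 of 10 macrophage markers (83.2 to 370 CPM and 85.7 to 129 CPM), beside 14.5% of all genes called lower. Of the alpha, delta and PP cell markers 3 of 9 were called lower, of the ductal markers 3 of 8, and of the endothelial markers and of the glia and Schwann cell markers 0 of 8 each, while of 10 beta cell markers 3 rose and 3 fell. In αGlu cells, beside 14.2% of all genes, the markers called lower were 5 of 9 acinar, 4 of 7 fibroblast and stellate, 3 of 8 ductal, 1 of 9 alpha, delta and PP, and 1 of 10 macrophage markers. The median log2 fold change of the macrophage markers was -2.17 in Ctr cells and -0.31 in αGlu cells, and 0 of 10 were called in the difference of both PA responses. Their part in the differences of the members was not tested, and in such bulk libraries fewer cells of a type and less RNA per cell cannot be told apart.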

How the data were processed

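Total RNA from dispersed mouse islet cells was sequenced as stranded mRNA in 24 libraries. The authors used version 5.1 of QIAGEN's RNA-seq portal, with the build GRCm38 by the submitters' processing notes and an aligner not given in the sources used here. Their deposited table holds, per gene and library, the raw count of reads on exons with RPKM, TPM and CPM; 24 CPM columns were not used. The authors' TPM, scaled per length, served to rank levels. Deposited RPKM values served only to scale CPM by length in a check of these ranks, which kept their order. Empty cells were taken as 0 counts (no 0 is written), and 1 line without a gene, with 0 counts, was left out.

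Counts were scaled by TMM and tested in R 4.3.3 with edgeR 4.0.16 (quasi-likelihood F-test, filterByExpr with a minimum count of 10, terms for group and batch, all 24 libraries, Benjamini-Hochberg over 15916 genes, called at an adjusted p below 0.05). The scripts were tested on simulated data. Library totals ran from 18214719 to 35001979 counts, and limits from counts cover counting error only. Alternatives were DESeq2 1.42.0, upper-quartile and RLE scaling, other filters, no batch term, only the compared groups, each batch alone, each library left out, a fold threshold of 2 with an unadjusted p below 0.05, the summed cluster and a block of 4 successive library numbers. Named were every member, up to 4 called genes of smallest p from each list, and the 5 genes nearest in pattern to the 2 members of smallest p. The members and lists were chosen with earlier results of these data known. 1 gene that this rule named is not reported here.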

Additional observations from a re-analysis of the deposited data

Results flagged for a closer look

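In 3 of the 40 combinations of a member and a group, 1 of 6 libraries lay farther from the rest than Dixon's 95% limit (a gap of 0.625 of the group's range); chance flags about 1 group in 20. Acot4 in Ctr PA had 10.1 CPM in library S23, where the next library had 7.48 CPM. Acot4 in αGlu PA had 4.88 CPM in library S12, where the next had 6.56 CPM. Acot8 in αGlu PA had 7.28 CPM in library S20, where the next had 8.51 CPM. Without S23 the log2 fold change of Acot4 with PA in Ctr cells was 0.73.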

How the results depend on the processing

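The calls of Acot1, Acot2, Acot4, Acot11 and Acot13 with PA were kept with every library left out in turn, under both ASOs. With a fold threshold of 2 and an unadjusted p below 0.05 in place of the adjusted p, 2 members were called in Ctr cells (Acot1 and Acot2) and 3 in αGlu cells (these and Acot7). DESeq2 called 1 member, Acot2, in the interaction of PA with batch. With 1 library left out, 6 to 7 members were called with PA in Ctr cells, 6 to 7 in αGlu cells and 0 to 1 in the interaction with batch. The groups share no replicate numbers, but each set of 4 successive library numbers holds 1 library of every group, and a replicate block of these sets was added after seeing the data. Deviations from the group mean of a batch correlated at 0.018 to 0.37 over genes in the 36 pairs of a set (above 0.1 in 25) and at -0.31 to 0.12 in 72 pairs across sets. The values within sets are a hint from the data that the labels do not settle. Because such deviations sum to 0 in each group of a batch, the values across sets offset them and add no separate evidence. With this block 1 member, Acot2, was called in the interaction of PA with batch, and no other call of a member changed. With PA 5 rose and 1 fell under either ASO (Acot7 at adjusted p = 0.0021 in Ctr and 0.000803 in αGlu cells), and Acot8 stayed uncalled in αGlu cells at 0.0697. Over all genes the block called 18% higher and 17.2% lower in Ctr cells, and 17.1% and 16.9% in αGlu cells, more than the fit used above.

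The log2 fold changes that changed sign under some setting were small and uncalled in the fit used above, and the cause was not tested. In batch 2 alone the log2 fold change with PA in Ctr cells was -0.096 for Acot8, and that of αGlu against Ctr in BSA was -0.075 for Acot2, 0.21 for Acot7 and -0.017 for Acot11. In batch 1 alone the latter was -0.0048 for Acot1 and -0.047 for Acot13, and with upper-quartile scaling -0.0014 for Acot13. In PA αGlu against Ctr gave 0.12 for Acot7, 0.069 for Acot12 and -0.091 for Acot13 in batch 1 alone, and -0.0013 for Acot8 in batch 2 alone. The difference of both PA responses was 0.083 for Acot7 with no batch term, and 0.41 for Acot7 and -0.045 for Acot13 in batch 1 alone. With 1 library left out, the log2 value with PA in Ctr cells ran from -0.059 to 0.13 for Acot8. For αGlu against Ctr in BSA it ran from -0.21 to 0.20 for Acot1, -0.066 to 0.14 for Acot2, -0.17 to 0.12 for Acot7, -0.19 to 0.036 for Acot9, -0.00055 to 0.097 for Acot11 and -0.017 to 0.034 for Acot13. In PA it ran from -0.019 to 0.22 for Acot2, -0.040 to 0.10 for Acot8, -0.078 to 0.095 for Acot9 and -0.026 to 0.073 for Acot13. For the difference of both PA responses it ran from -0.052 to 0.20 for Acot2, -0.052 to 0.18 for Acot9, -0.011 to 0.086 for Acot11, -0.030 to 0.34 for Acot12 and -0.035 to 0.064 for Acot13. For the interaction with batch it ran from -0.018 to 0.21 for Acot9 and -0.010 to 0.095 for Acot13. Depth limits Acot3 (0 to 13 reads a library), Acot1 (4 to 310) and Acot12 (9 to 53).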
